A study of Mus musculus with 8 samples.

Results

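The genes described here encode RNA polymerase II and the factors that carry it through a gene: the polymerase subunits, the factors of promoter-proximal pausing with the kinase complex P-TEFb, the elongation factors and histone chaperones, and the enzymes that attach ubiquitin to histone H2B. Of 42 genes named for these roles, 37 had a probe set with that exact single symbol in the platform annotation, out of 18193 genes so named on the array. Polr2k, Polr2l, Supt4a and Ell3 were read only by probe sets listed under several symbols and Ssrp1 by no named probe set, so these 5 were not analysed here. Each gene was read by its probe set with the highest mean over all arrays.

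RNA came from mouse embryonic stem (ES) cells of the strain label Oct4-Gip at passage 25, taken on day 4 after lipofection of an esiRNA, a mixture of short silencing RNAs made by digesting 1 long double-stranded RNA. On 4 arrays the cells had received an esiRNA against Ctr9, and on 4 arrays an esiRNA against luciferase (LUC), an insect enzyme used as the control target. All values are log2 probe set signals, and every difference is Ctr9 esiRNA minus luciferase esiRNA. The labels do not tell whether replicates were grown as separate cultures, so the tests here gauge the scatter of these samples alone, and that scatter may be technical.

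Polymerase II begins transcription at a promoter and in most genes halts shortly after the start, held by the pausing factors DSIF and NELF. The kinase complex P-TEFb, kept inactive by the 7SK ribonucleoprotein and carried by the super elongation complex, releases it into elongation. The Paf1 complex, of which Ctr9 is a scaffold subunit, travels with the elongating polymerase and brings in the enzymes that ubiquitinate histone H2B, while TFIIS restarts polymerase that has backtracked and chaperones take histones off and put them back.

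The target was only slightly lower in the arrays labelled Ctr9 esiRNA. The brightest of 5 Ctr9 probe sets read 10.09, 10.13, 10.13 and 10.07 in the Ctr9 esiRNA arrays, against 10.12, 10.18, 10.21 and 10.26 in the luciferase arrays. The difference of -0.09 (SE 0.047) did not pass (limma, Benjamini-Hochberg adjusted p = 0.209). An exact permutation test, two-sided, whose floor with 4 against 4 arrays is 0.0286, gave p = 0.0857. The next probe sets in brightness fell by 0.15 and 0.18, and a dim one rose by 0.29 (limma, Benjamini-Hochberg adjusted p = 0.0398, 0.0279 and 0.0228). Each of these stood at the floor of the permutation test. Directions are therefore those between the groups as labelled. The upper quartiles of the arrays were 8.1 to 8.15. The processing named by the submitters, RMA, equalises the arrays' distributions, so this likeness says nothing about the RNA. The correlation of the arrays was 0.9975 to 0.9982 within groups and 0.9924 to 0.994 between them.

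The cells also differed in identity markers, and these shifts go with every result that follows. Of all genes on the array, 30.8% passed, 15.8% higher and 15.0% lower. The marker lists gave 55.6% (ES cells), 80% (trophectoderm), 28.6% (primitive endoderm) and 54.5% (fibroblasts). The primitive endoderm list thus did not exceed the array's own share. Of 9 ES cell markers, all far above the array median, 5 were lower with Ctr9 esiRNA, and their summed signal (on the linear scale) was 75818 to 77344 against 89556 to 92494 in the luciferase arrays. Of 10 trophectoderm markers 8 were higher, with summed signals of 5339 to 5734 against 2141 to 2545. The rise of this linear sum goes mostly with Krt8 and Krt18. Their means were 10.82 and 10.74 with Ctr9 esiRNA, against 8.21 and 8.35 with luciferase esiRNA. Tfap2c (-0.13), the brightest of the 10 over both groups, and Elf5 (0.05) did not pass. Of the 10 markers, 2 read below the array median of 5.75. Of 7 primitive endoderm markers 2 were higher, Foxa2 by 1.98 and Dab2 by 1.26. Gata4 (0.07), Gata6 (-0.12), Sox17 (-0.24), Sox7 (-0.05) and Pdgfra (-0.10) did not pass. The summed signals of the 7, with an empty Sox7 value filled by its group mean, were 493 to 558 against 330 to 353. The rise of this sum thus goes with Foxa2 and Dab2, and 5 of the 7 markers read below the array median. Of 11 measured fibroblast markers, which would show feeder cells, 5 were higher (Vim, Mmp2, Dcn, Col1a2 and Twist1) and 1 was lower, Fn1, at a mean of 11.34 with Ctr9 esiRNA (n = 3, with 1 empty value) and 11.82 with luciferase esiRNA (n = 4). Their summed signals, with the empty Fn1 value filled by its group mean, were 6058 to 6323 against 6401 to 6754. This sum ran against most of the markers that passed. Fn1 and Vim were the brightest of the 11, with means of 11.61 and 11.38 over both groups, and weigh most in this linear sum. Col1a1, Col3a1, Postn and Lum did not pass and read below the array median in both groups. In bulk RNA, a smaller share of cells of a type and less RNA per cell cannot be told apart, and the part of these shifts in the results was not tested.

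Across the polymerase and elongation genes, 5 were higher and 8 were lower with Ctr9 esiRNA and 24 did not pass (limma, adjusted p under 0.05 over all 45037 probe sets). Of all 18193 genes, 30.8% passed, 15.8% higher and 15.0% lower, so the 35.1% of the measured polymerase and elongation genes lies near the array's own share. Among the 11647 genes at least as bright as the dimmest of them, Mllt3, the share was 42.4%, a comparison chosen after the values were seen. The groups did not overlap for 16 of the 37 genes, against 36.6% of all genes. The median difference of the 37 genes was -0.01 and that of all genes was 0.004. Their median size without sign was 0.091, against 0.111 for all genes. The count of lower genes was 5 when luciferase replicates 3 and 4 were left out, where Tcea1, Tcea3 and Rnf40 no longer passed. In that setting the share of all genes that passed also dropped, to 23.3% from 30.8%.

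**Figure D1:**
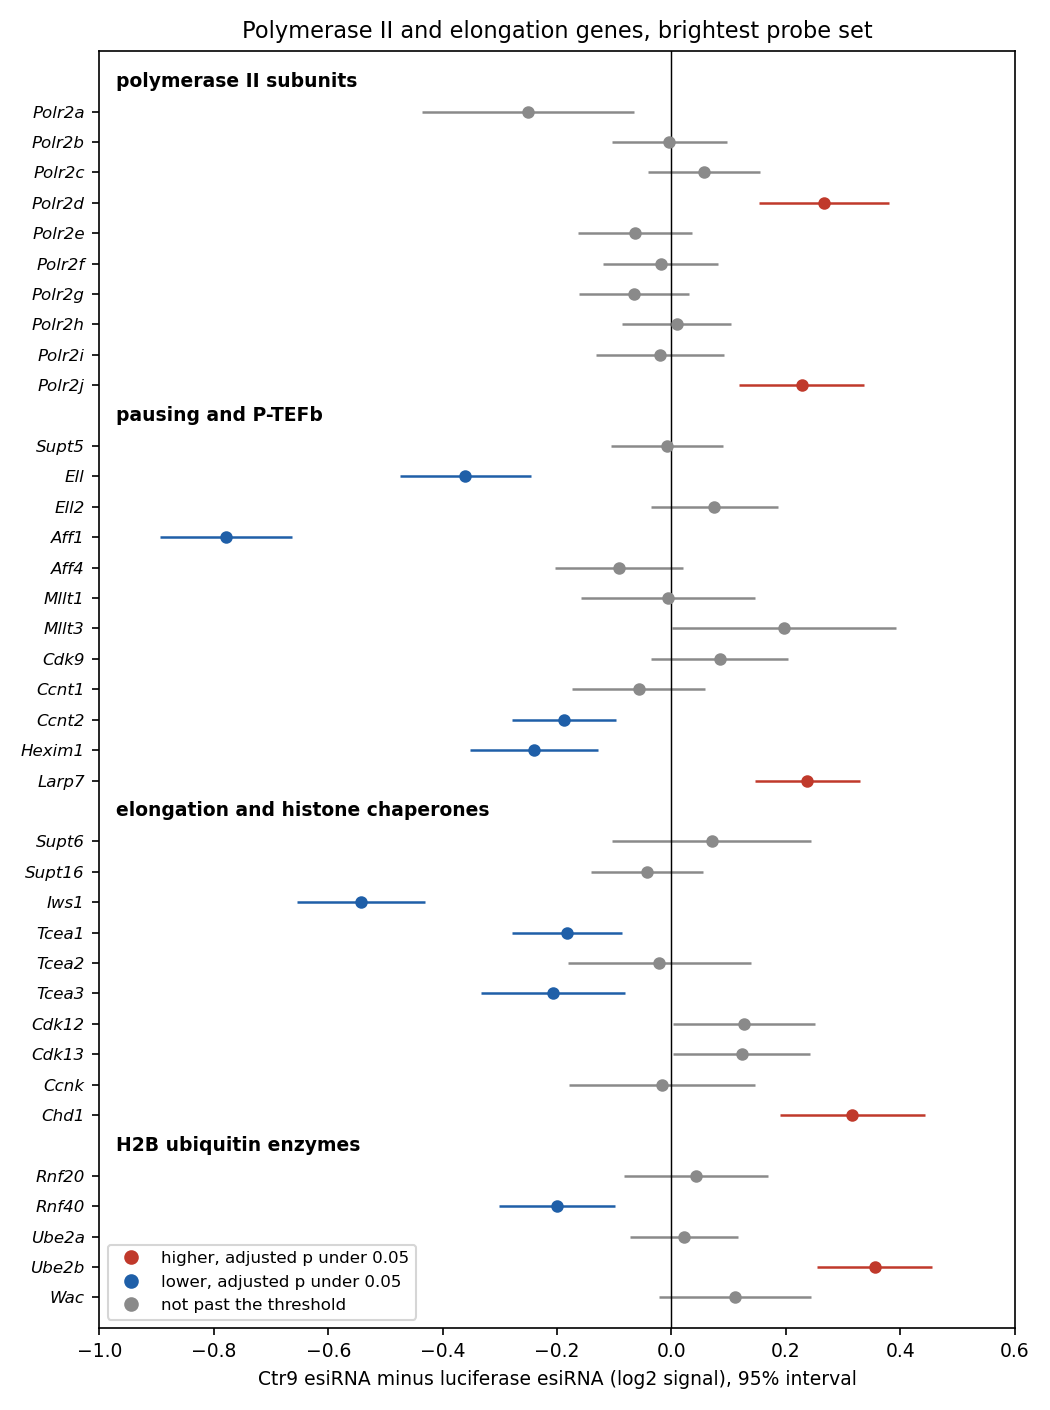
Difference in log2 signal (x axis, Ctr9 esiRNA minus luciferase esiRNA, 4 arrays each) of the 37 measured genes by their brightest probe set, grouped by role. Dots are limma estimates and bars their 95% intervals, without adjustment for multiple tests. Aff1 at -0.78 and Iws1 at -0.54 lie farthest from 0, while 8 of the 10 polymerase subunits are grey.

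All 37 genes read above the array median, with means from 5.82 for Mllt3 to 12.42 for Tcea1. That median is taken over all probe sets, and 11647 of all 18193 genes were at least as bright as Mllt3. Signals of different probe sets are not compared as amounts of RNA. Sequence upstream of the start was read for 30 of the 37 genes from the RefSeq promoter table (GRCm38.p6). It holds 35 windows of 300 bases for these genes, 250 before the annotated start and 50 after it. These windows were rich in CpG, with a median of 27 CG pairs against 7 over all 32851 windows of the table, which include predicted and non-coding genes. Shown are 4 genes of pausing and P-TEFb that passed the test and have a single window, together with Polr2j, the polymerase subunit that passed and has a window. They are printed so that the higher Larp7 and Polr2j can be set beside the lower Ccnt2, Hexim1 and Ell. Capitals mark matches, on either strand, to short letter runs. These are TATAAA for the classical core promoter box, CCAAT for the box named by those letters, GGGCGG as the motif bound by Sp1 (called the GC box here), CCGGAAG as the core bound by ETS factors, CACGTG as the E-box, TGACGT as the core of the cyclic AMP response element (CRE core), GCATGCGC as the core bound by NRF1 and AAGATGGC as the core bound by YY1. Neighbouring matches may share letters.
Ccnt2, chr1:127773914-127774213, + strand: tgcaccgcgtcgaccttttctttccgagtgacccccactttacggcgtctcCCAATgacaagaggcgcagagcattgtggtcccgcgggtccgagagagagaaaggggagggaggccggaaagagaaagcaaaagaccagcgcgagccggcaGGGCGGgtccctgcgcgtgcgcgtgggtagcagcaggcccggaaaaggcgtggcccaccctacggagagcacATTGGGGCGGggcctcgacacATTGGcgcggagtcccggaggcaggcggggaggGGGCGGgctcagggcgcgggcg
Hexim1, chr11:103116075-103116374, + strand: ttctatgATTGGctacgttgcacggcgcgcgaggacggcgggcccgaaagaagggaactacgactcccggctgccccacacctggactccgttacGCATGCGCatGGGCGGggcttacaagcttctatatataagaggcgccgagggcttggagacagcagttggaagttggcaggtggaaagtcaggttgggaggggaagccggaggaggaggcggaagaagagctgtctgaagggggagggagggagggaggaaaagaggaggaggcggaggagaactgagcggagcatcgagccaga
Larp7, chr3:127553300-127553599, - strand: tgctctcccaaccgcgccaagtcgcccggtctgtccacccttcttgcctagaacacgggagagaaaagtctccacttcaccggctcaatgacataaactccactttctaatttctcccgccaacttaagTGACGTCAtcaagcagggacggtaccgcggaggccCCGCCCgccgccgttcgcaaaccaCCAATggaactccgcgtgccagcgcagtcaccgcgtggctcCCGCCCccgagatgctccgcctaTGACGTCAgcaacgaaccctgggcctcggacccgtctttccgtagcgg
Ell, chr8:70539425-70539724, + strand: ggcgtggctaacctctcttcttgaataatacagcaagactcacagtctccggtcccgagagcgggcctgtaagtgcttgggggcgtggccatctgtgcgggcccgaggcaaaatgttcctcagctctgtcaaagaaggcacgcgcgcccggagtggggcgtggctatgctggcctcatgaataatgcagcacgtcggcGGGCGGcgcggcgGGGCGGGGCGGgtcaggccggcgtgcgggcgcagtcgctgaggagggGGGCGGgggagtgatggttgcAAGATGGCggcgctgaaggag
Polr2j, chr5:136116441-136116740, + strand: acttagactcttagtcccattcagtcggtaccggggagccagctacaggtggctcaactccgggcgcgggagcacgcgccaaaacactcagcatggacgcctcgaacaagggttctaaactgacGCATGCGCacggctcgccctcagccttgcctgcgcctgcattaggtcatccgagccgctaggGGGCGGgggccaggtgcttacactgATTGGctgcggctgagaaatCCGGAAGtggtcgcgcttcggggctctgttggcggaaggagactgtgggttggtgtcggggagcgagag

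The GC box letters stood in all 5 printed windows and in 27 of the 35 windows of the measured genes (77.1%), against 35.7% of all windows. The CCAAT letters stood in 15 (42.9%, against 37.4%), the ETS core in 9 (25.7%, against 8.86%), the CRE core in 8 (22.9%, against 7.51%), the E-box in 4 (11.4%, against 7.15%), the NRF1 core in 3 (8.57%, against 2.71%), the core promoter box in 3 (8.57%, against 13.6%) and the YY1 core in 2 (5.71%, against 2.75%). The window of Larp7 holds the CRE core 4 times, as 2 full palindromes starting at bases 130 and 253 of the window. The lower Hexim1 and the higher Polr2j both hold the NRF1 core letters, at bases 96 and 125 of their windows. The windows of the measured genes also hold more CG pairs (median 27, against 7), and several of these letter runs contain CG. The shares were not compared with windows of like CpG content. These are matches of letters only, and no binding was measured.

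Of the 10 measured polymerase II subunits, 2 were higher, none was lower and 8 did not pass. Both increases were modest. Polr2d, which pairs with Polr2g in the stalk of the enzyme, read 10.41, 10.27, 10.29 and 10.30 in the Ctr9 esiRNA arrays, against 10.03, 10.10, 9.99 and 10.08 in the luciferase arrays. Every Ctr9 esiRNA array lay above every luciferase array. The difference was 0.27 (SE 0.051, a change of 20.3%, limma adjusted p = 0.00331). Polr2j, which pairs with Polr2c early in the assembly of the enzyme, read 10.71, 10.68, 10.76 and 10.72 in the Ctr9 esiRNA arrays, against 10.44, 10.45, 10.49 and 10.59 in the luciferase arrays. Its groups did not overlap either, and it rose by 0.23 (SE 0.049, limma adjusted p = 0.00661). Their partners gave -0.07 (Polr2g, SE 0.043) and 0.06 (Polr2c, SE 0.044) and did not pass. Polr2j lost its call when luciferase replicates 1 and 2 were left out (0.18, limma adjusted p = 0.0670).

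Polr2a, the catalytic subunit whose C-terminal repeats carry the phosphorylation marks of elongation, had the largest standard error of the 10 subunits. It read 10.50, 10.57, 10.43 and 10.36 in the Ctr9 esiRNA arrays, against 10.78, 10.47, 10.82 and 10.79 in the luciferase arrays. Luciferase replicate 2 lay within the range of the Ctr9 esiRNA arrays, and the other luciferase arrays lay above all of them. The difference of -0.25 (SE 0.083) just missed the threshold (limma adjusted p = 0.0516). Without luciferase replicate 2 it was -0.33 (SE 0.060, limma adjusted p = 0.00385), and over the 25 alternatives it passed in 6, always in the same direction. Its dimmer probe set gave -0.08 (SE 0.072).

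The remaining 7 subunits differed by no more than 0.07 in size. Polr2b, the other large subunit, read 11.93 ± 0.044 with Ctr9 esiRNA and 11.94 ± 0.034 with luciferase esiRNA (SD, n = 4 each). The differences of Polr2e, Polr2f and Polr2h, which polymerases I and III share, were -0.06 (SE 0.045), -0.02 (SE 0.045) and 0.01 (SE 0.043). Polr2i, a small subunit at the jaw of the enzyme, gave -0.02 (SE 0.050). Apart from Polr2a, the 95% intervals of the subunits that did not pass lay between -0.16 and 0.16, so a change of that size or smaller could have gone unseen.

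Among 12 measured genes of pausing and P-TEFb, 4 were lower, 1 was higher and 7 did not pass. The 4 lower genes included the largest change of all 37. Aff1, a scaffold of the super elongation complex, read 8.23, 8.25, 8.16 and 8.35 in the Ctr9 esiRNA arrays, against 9.01, 9.07, 8.99 and 9.04 in the luciferase arrays. The groups lay far apart relative to their spread. Aff1 fell by 0.78 (SE 0.052, a change of -41.7%, limma adjusted p = 4e-06), and its dimmer probe sets fell by 0.38 and 0.33, both past the test. Aff4, the related scaffold, read 11.56 ± 0.029 with Ctr9 esiRNA and 11.65 ± 0.075 with luciferase esiRNA (SD, n = 4 each). Its difference of -0.09 did not pass, while a dim Aff4 probe set changed by -0.30 (limma adjusted p = 0.0239).

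Ell, an elongation factor of the same complex, read 8.04, 7.99, 7.98 and 8.0 in the Ctr9 esiRNA arrays, against 8.35, 8.29, 8.33 and 8.48 in the luciferase arrays. The groups did not overlap, and Ell fell by 0.36 (SE 0.051, limma adjusted p = 0.000545). The dimmer Ell probe set, which may hybridise with other transcripts, differed by 0.15 and did not pass, and the mean of the pair (-0.10, limma adjusted p = 0.0958) did not pass. Its paralog Ell2 differed by 0.08 (SE 0.050). The reader proteins of the complex, Mllt1 and Mllt3, gave -0.01 and 0.20 and did not pass on their brightest probe sets. Mllt3 was the dimmest of the 37 genes, and its second probe set rose by 0.39 (limma adjusted p = 0.0194), as did the mean of all 3 by 0.22 (limma adjusted p = 0.0277).

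The subunits and regulators of P-TEFb went in both directions. Cdk9, the kinase, differed by 0.08 (SE 0.054), and Ccnt1, the main cyclin partner, by -0.06 (SE 0.052), and neither passed. A dim Cdk9 probe set rose by 0.31 (limma adjusted p = 0.0487), and the mean of both Cdk9 probe sets rose by 0.20 (limma adjusted p = 0.0172). Ccnt2, the alternative cyclin, read 10.01, 10.01, 10.03 and 10.02 in the Ctr9 esiRNA arrays, against 10.23, 10.18, 10.19 and 10.22 in the luciferase arrays. The spread within each group was small and the groups did not overlap. Ccnt2 fell by 0.19 (SE 0.041, limma adjusted p = 0.00681), and all 5 of its probe sets fell, by 0.19 to 0.61. The second brightest read 8.34, 8.49, 8.56 and 8.55 in the Ctr9 esiRNA arrays, against 9.11, 9.17, 9.17 and 8.95 in the luciferase arrays. The size of the change thus differed between probe sets.

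Of the proteins that hold P-TEFb on the 7SK RNA, Hexim1 fell and Larp7 rose. Hexim1, which inhibits the kinase, read 10.36, 10.38, 10.44 and 10.43 in the Ctr9 esiRNA arrays, against 10.59, 10.63, 10.62 and 10.75 in the luciferase arrays. It fell by 0.24 (SE 0.050, limma adjusted p = 0.00581), and its other probe set fell by 0.30. Larp7, which binds and stabilises the 7SK RNA, read 10.39, 10.40, 10.42 and 10.36 in the Ctr9 esiRNA arrays, against 10.19, 10.15, 10.15 and 10.13 in the luciferase arrays. Neither gene's groups overlapped. Larp7 rose by 0.24 (SE 0.041, limma adjusted p = 0.00196), and its other probe set rose by 0.44 (limma adjusted p = 7.59e-05). Supt5, the large subunit of DSIF, read 11.74 ± 0.040 with Ctr9 esiRNA and 11.74 ± 0.027 with luciferase esiRNA (SD, n = 4 each).

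**Figure D2:**
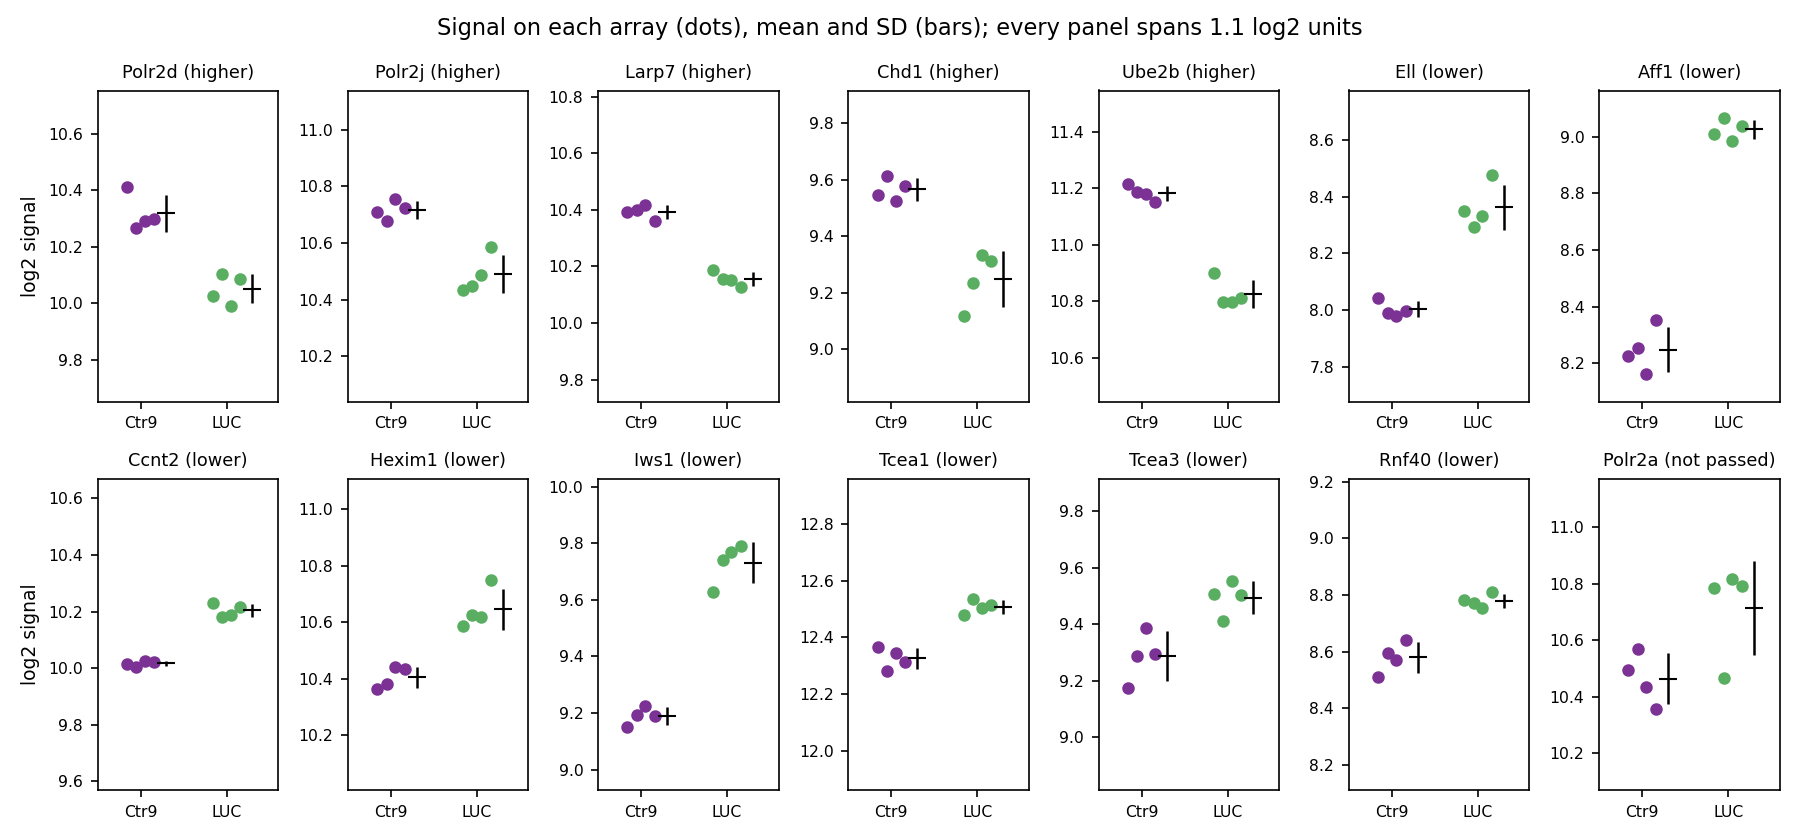
Log2 signal on each array (dots, y axis; all panels span the same range) of the 13 genes that passed and of Polr2a, with Ctr9 esiRNA left and luciferase (LUC) esiRNA right; black bars are the mean and SD of 4 arrays. In each of the 13 panels the groups do not overlap, while luciferase replicate 2 of Polr2a, at 10.47, lies among the Ctr9 esiRNA arrays.

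Of 10 measured elongation factors and histone chaperones, 3 were lower, 1 was higher and 6 did not pass. Iws1, which binds the chaperone Supt6 and the polymerase, read 9.15, 9.19, 9.23 and 9.19 in the Ctr9 esiRNA arrays, against 9.63, 9.74, 9.77 and 9.79 in the luciferase arrays. This probe set, the brightest, gave -0.54 (SE 0.050), a change of -31.3% (limma adjusted p = 3.25e-05). The other, nearly as bright, went the other way, at 9.31, 9.23, 9.25 and 9.22 in the Ctr9 esiRNA arrays, against 9.07, 9.07, 9.12 and 9.19 in the luciferase arrays (0.14, SE 0.048, limma adjusted p = 0.0620). Both probe sets separated the groups, in opposite directions, so the direction for Iws1 depends on the probe set; their mean fell by 0.20 (limma adjusted p = 0.00278).

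The TFIIS genes were lower where they passed. Tcea1, the broadly expressed form, read 12.37, 12.28, 12.34 and 12.31 in the Ctr9 esiRNA arrays, against 12.48, 12.54, 12.50 and 12.51 in the luciferase arrays. It fell by 0.18 (SE 0.043, limma adjusted p = 0.0108), as did its other probe set by 0.20. Tcea3 read 9.17, 9.29, 9.39 and 9.30 in the Ctr9 esiRNA arrays, against 9.51, 9.41, 9.55 and 9.50 in the luciferase arrays. Its highest Ctr9 esiRNA array and its lowest luciferase array lay close together, and the fall of 0.21 (SE 0.057, limma adjusted p = 0.0224) lost its call without luciferase replicate 1 (0.0521) or 3 (0.0623) or without Ctr9 esiRNA replicate 1 (0.0552). Tcea2 differed by -0.02 (SE 0.072). The Tcea1 call ended without luciferase replicates 1 and 2 (limma adjusted p = 0.0517) or 3 and 4 (0.0597).

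Chd1, a remodeller that reads methylated histone H3 and that keeps chromatin open in mouse ES cells, was the higher gene of this group. It read 9.54, 9.61, 9.52 and 9.58 in the Ctr9 esiRNA arrays, against 9.12, 9.23, 9.33 and 9.31 in the luciferase arrays. The groups did not overlap, and Chd1 rose by 0.32 (SE 0.057, limma adjusted p = 0.00238), with 3 of its 4 probe sets past the test in that direction. The histone chaperone Supt6 gave 0.07 (SE 0.078) and Supt16, a subunit of FACT, gave -0.04 (SE 0.044), and neither passed. The kinases of the polymerase tail Cdk12 and Cdk13 gave 0.13 (SE 0.055, with 3 luciferase values since replicate 3 is empty) and 0.12 (SE 0.053), and their cyclin Ccnk gave -0.02 (SE 0.073). None of these passed, although the groups of Cdk12 and Cdk13 did not overlap. For Cdk12 the luciferase values left were 8.994, 8.994 and 8.995. Whether its groups would overlap with the empty value cannot be told.

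Cdk12 was the only gene of the 37 with probe sets past the test in opposite directions, as 2.13% of all genes with several probe sets had. Its second brightest probe set read 8.65, 8.49, 8.52 and 8.53 in the Ctr9 esiRNA arrays, against 8.19, 8.21, 8.32 and 8.28 in the luciferase arrays, a rise of 0.30 (SE 0.054, limma adjusted p = 0.00262). A dim probe set read 6.37, 6.16, 6.01 and 6.27 in the Ctr9 esiRNA arrays, against 6.68, 6.63, 6.56 and 6.82 in the luciferase arrays, a fall of 0.47 (SE 0.084, limma adjusted p = 0.00213). Each separated the groups, and the mean over all 7 Cdk12 probe sets differed by -0.04, so no direction is given for Cdk12.

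The H2B ubiquitin enzymes held 1 higher gene, 1 lower gene and 3 that did not pass. Ube2b, a ubiquitin-conjugating enzyme, read 11.21, 11.19, 11.18 and 11.15 in the Ctr9 esiRNA arrays, against 10.90, 10.80, 10.80 and 10.81 in the luciferase arrays. It rose by 0.36 (SE 0.045, a change of 27.9%, limma adjusted p = 0.000261). The rise was seen on its brightest probe set only: the other 3 gave 0.08, -0.17 and 0.04 and the mean of all 4 gave 0.07, none of which passed. Ube2a, its close paralog, read 12.33 ± 0.008 with Ctr9 esiRNA and 12.31 ± 0.040 with luciferase esiRNA (SD, n = 4 each) and did not pass, while the dimmer of its probe sets gave -0.28 (SE 0.062) and passed (limma adjusted p = 0.00724). The mean of both Ube2a probe sets was lower too, at -0.13 (limma adjusted p = 0.0264), so the direction for Ube2a depends on the probe set.

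Rnf40, a subunit of the ligase that ubiquitinates histone H2B, read 8.51, 8.60, 8.57 and 8.64 in the Ctr9 esiRNA arrays, against 8.78, 8.77, 8.75 and 8.81 in the luciferase arrays. The groups did not overlap, and Rnf40 fell by 0.20 (SE 0.046, limma adjusted p = 0.00894). Its partner Rnf20 differed by 0.04 (SE 0.056) and Wac, the adaptor that links the ligase to the polymerase, by 0.11 (SE 0.060), and neither passed. The change on a dim Wac probe set was -0.37 (limma adjusted p = 0.00441), and the mean of all 6 Wac probe sets also passed as lower, at -0.12 (limma adjusted p = 0.0366), against the sign of the brightest. The Rnf40 call ended without luciferase replicates 1 and 2 (limma adjusted p = 0.0516) or 3 and 4 (0.0510).

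The 37 genes had 87 probe sets in all, of which 11 were higher and 20 lower, and 26 of the genes had several. Over the whole array 24.9% of probe sets passed, 11.8% higher and 13.1% lower. Of the 13 genes that passed on their brightest probe set, 9 had several, and for 5 of these (Aff1, Ccnt2, Hexim1, Larp7 and Tcea1) every probe set passed in the same direction. Of the 24 that did not pass, 6 had a dimmer probe set that did. None of the 13 was read by a probe set type that can hybridise with other genes (suffix _x_at or _s_at).

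**Figure D3:**
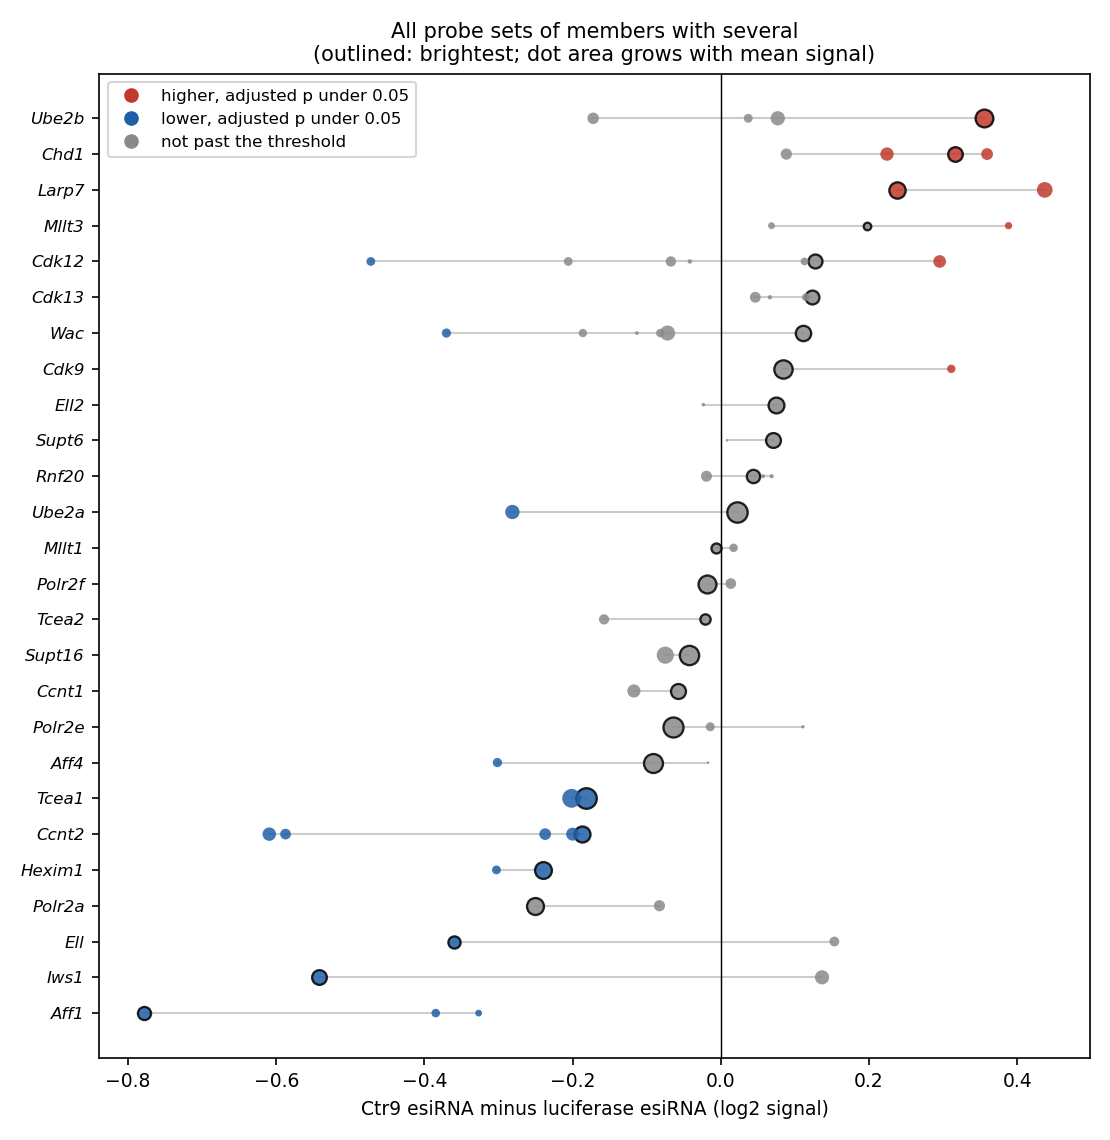
Difference in log2 signal (x axis, Ctr9 esiRNA minus luciferase esiRNA) of every probe set of the 26 genes with several; outlined dots are the brightest of a gene, dot area grows with the mean signal, and colour gives the result of the test. All dots of Aff1, Ccnt2, Hexim1, Tcea1 and Larp7 are coloured on the same side of 0. Those of Iws1 and Ell lie on both sides, and Cdk12 has a red dot at 0.30 and a blue dot at -0.47. Dots of Ell2, Mllt1, Polr2e, Polr2f, Rnf20, Ube2a, Ube2b and Wac lie on both sides too.

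Partners of these genes were counted from lists of the same pathway, to be read against the 30.8% of all genes that passed in either direction. Genes of these lists and of those under Other observations were read by the brightest probe set. Apart from those of Ctr9, their other probe sets were not examined. Of 6 Paf1 complex genes, 1 was higher (Cdc73, 0.28, SE 0.052) and none was lower. Of 6 measured genes of NELF and the 7SK particle, 1 was lower, Hexim2 (-0.31, SE 0.085), the paralog of Hexim1, and the NELF subunits did not pass. Of 12 other genes of the super elongation complex and related factors, 3 were higher and 3 were lower. Aff3, a relative of Aff1, rose by 0.97 (SE 0.061), Mllt10 fell by 0.28, and Elob, an elongin subunit, rose by 0.36. Of 17 measured general transcription factors, 3 were higher, among them Gtf2h5 (0.36) and Ccnh (0.35), both of TFIIH, and 2 were lower, among them Gtf2h1 (-0.26), also of TFIIH. Of 14 phosphatases of the polymerase tail and assembly factors, 2 were higher, among them Ctdspl (0.44), and 2 were lower (Rpap1 at -0.37 and Rprd1a at -0.25). The medians of these 5 lists ran from -0.04 to 0.07, against 0.004 over all genes.

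**Figure D4:**
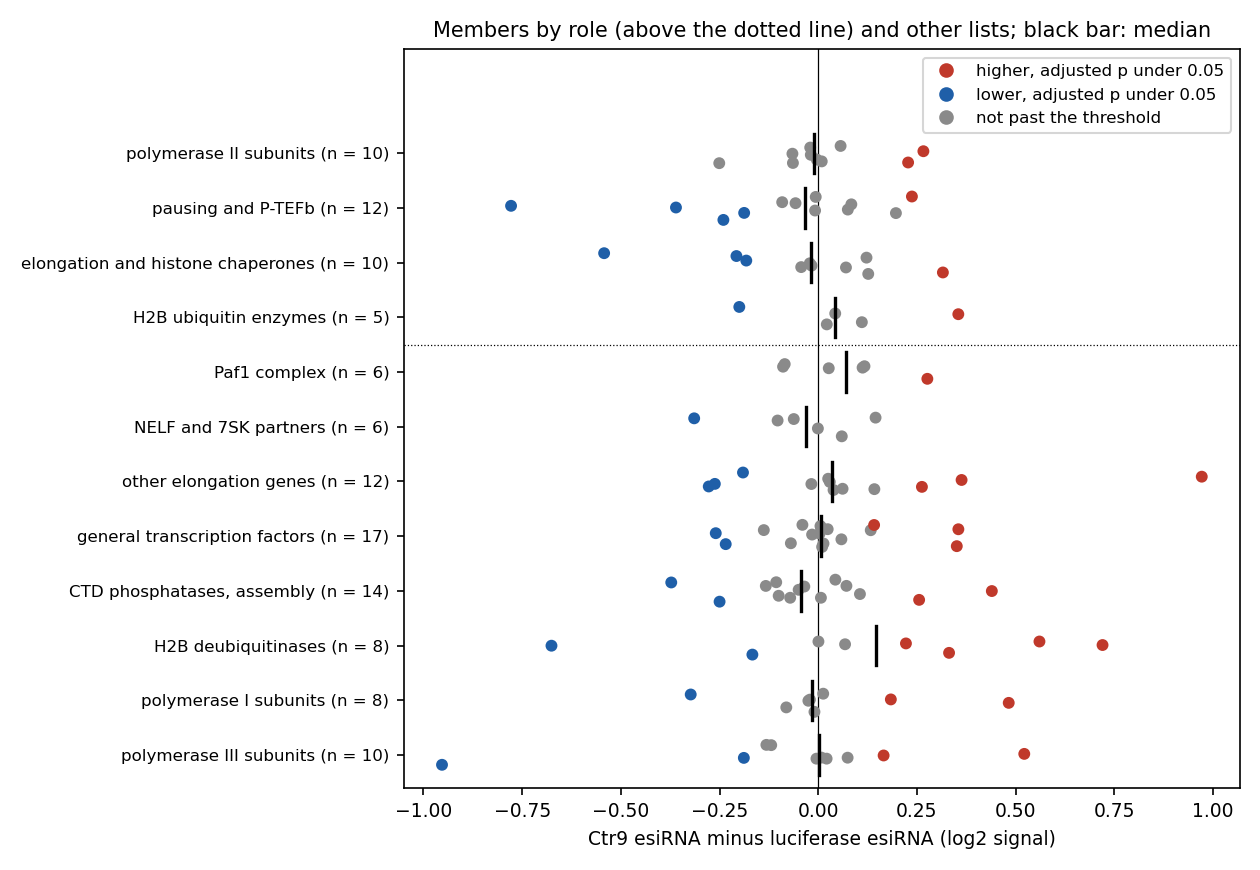
Difference in log2 signal (x axis, Ctr9 esiRNA minus luciferase esiRNA) of each gene by its brightest probe set, for the 4 roles above the dotted line and for 8 other gene lists below it; dots are genes (vertical jitter is arbitrary), colours give the test and black bars the medians. All medians lie close to 0, and the highest, 0.15, is that of the H2B deubiquitinases.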

How the data were processed

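The authors deposited 1 log2 signal per probe set for each of 8 one-colour Affymetrix arrays. GCOS 1.4 and RMA are named, without settings, in the submitters' processing notes. RMA equalises the arrays' distributions, so a change shared by all transcripts would not be seen, and it compresses differences of low signals. These log2 values, as deposited, were neither rescaled nor filtered.

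The table holds 45101 probe sets, of which 64 manufacturer controls were left out and 45037 were tested. The platform annotation gives 1 symbol to 34945 of these, several to 932 and none to 9160. In the tested probe sets, 456 values are empty, at most 1 per probe set. The comparison used lmFit and eBayes of limma 3.58.1 (R 4.3.3). A result passed when its Benjamini-Hochberg adjusted p, computed across every tested probe set, was under 0.05, and each SE is the moderated one. An exact two-sided permutation test over arrays was added for Ctr9. Summed marker signals are sums of 2 to the power of the log2 value. The fit was also run on simulated arrays with planted changes and independent noise. That is a check of the code and does not measure error rates in these data. Figures were drawn with matplotlib 3.10.9. Precision is limited by the number of arrays.

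The genes, roles, lists and alternatives were chosen with earlier results of these data known. Full values are given for each gene past the threshold, for Polr2a and for genes with probe sets past it in opposite directions; up to 3 genes of each partner list are named, by adjusted p. Tceb1, Tceb2 and Tceb3 were found under their newer symbols Eloc, Elob and Eloa. Replicate numbers were checked for pairing: deviations from the group means of same-numbered arrays correlated at -0.0776 to 0.0625, so the numbers were not taken to pair the samples. Alternatives covered filters, scalings, priors, weights, thresholds, replicate blocking, the probe set taken per gene, symbols, empty values and arrays left out.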

Additional observations from a re-analysis of the deposited data

Results flagged for a closer look

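Of 75 groups of 4 values examined, 3 held an array far from the rest of its group, and about 1 in 20 groups would by chance. Polr2a was lowest in luciferase replicate 2, at 10.47, with the nearest luciferase array at 10.78. Rnf20 was highest in Ctr9 esiRNA replicate 4, at 8.92, with the nearest at 8.74. Ube2b was highest in luciferase replicate 1, at 10.90, with the nearest at 10.81. Without luciferase replicate 2 the Polr2a difference passed the test (limma adjusted p = 0.00385), and without any other single array it did not (0.0504 to 0.128), and Ube2b stayed past it in every leave-one-out fit (limma adjusted p of 0.000469 to 0.00130).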

How the results depend on the processing

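Over 25 alternatives, 5 of the 13 genes that passed (Polr2d, Aff1, Hexim1, Larp7 and Chd1) passed in every alternative, and 11 kept their direction in every alternative. Polr2d is 1 of 11 measured genes with a single probe set. For such genes the alternatives that change the probe set returned the same difference and are no test. The count of higher genes was 5 to 7 and that of lower genes 5 to 9. The share of all genes that passed moved with the setting too. It ran from 20.1% at an adjusted p threshold of 0.01 to 51.9% among probe sets above the median signal. The lower count was 5 with a required log2 difference of at least 0.2 (25.6% of all genes passed) and 5 without luciferase replicates 3 and 4 (23.3%). Leaving out each array in turn gave 5 to 6 higher and 7 to 9 lower genes, where 26.5% to 27.9% of all genes passed. With the replicate number as a block, the counts were 5 and 8, and no call changed for Ctr9, the 13 genes that passed, Polr2a or Cdk12; over all genes the share that passed was 26.2%, against 30.8%, and partner genes were not examined under the block. With the second brightest probe set the direction turned for Ell (0.15), Iws1 (0.14) and Ube2a (-0.28, past the test), and, among genes past the test neither way, for Ell2, Mllt1, Polr2f, Rnf20 and Wac. With the mean of all probe sets it turned for Cdk12 (-0.036), Polr2e and Mllt1, none past the test, and for Ube2a (-0.13) and Wac (-0.12), both past it. For Ctr9, the second brightest probe set, which is also the brightest without an _s_at suffix, gave -0.15 and passed; the third gave -0.18 and passed, the fourth 0.29, the fifth 0.27 and the mean of all 5 gave 0.027. The cause of these differences between probe sets was not tested. Of the 24 genes that did not pass, 17 passed in no alternative. Changes of about 0.2 or less lie near the limit of what 4 arrays a group showed here.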

Other observations

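Subunits of the other nuclear polymerases went in both directions, with 37.5% of polymerase I and 40.0% of polymerase III subunits past the test, against 30.8% of all genes. Of 8 polymerase I subunits, 2 were higher and 1 was lower: Polr1d, which polymerases I and III share, rose by 0.48 (SE 0.041), Polr1b rose by 0.18 (SE 0.060) and Znrd1 fell by 0.32 (SE 0.047). Of 10 measured polymerase III subunits, 2 were higher and 2 were lower, Polr3b among them (-0.19, SE 0.045). Polr3gl read 6.34 ± 0.146 with Ctr9 esiRNA and 7.29 ± 0.068 with luciferase esiRNA (SD, n = 4 each), a fall of 0.95 (SE 0.074, limma adjusted p = 1.03e-05). Its paralog Polr3g, the form of pluripotent cells, rose by 0.17 (SE 0.048, limma adjusted p = 0.0292), and Polr3k rose by 0.52 (SE 0.048); Polr3g was chosen after its values were seen.

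Of 8 measured genes that remove ubiquitin from histone H2B, 4 were higher and 2 were lower, where 30.8% of all genes passed in either direction; no test was made of the list. Eny2, a subunit of the SAGA deubiquitinase module, rose by 0.72 (SE 0.054, limma adjusted p = 8.66e-06). Usp27x, a catalytic partner of that module, rose by 0.56 (SE 0.076), and Usp49 fell by 0.68 (SE 0.060).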
